A study of Mus musculus with 11 samples.

Results

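The replication-dependent histone genes encode the H1 linker histones and the H2A, H2B, H3 and H4 core histones that package newly made DNA. They were taken as every row of the deposited count table with the biotype protein_coding and a gene name starting with Hist1h, Hist2h, Hist3h or Hist4h. This gave 68 of the 46078 genes in the table, of which 6 encode H1, 19 H2A, 18 H2B, 12 H3 and 13 H4. By name, 55 belong to Hist1 on mouse chromosome 13, 10 to Hist2 on chromosome 3, 2 to Hist3 on chromosome 11 and 1 to Hist4 on chromosome 6. Hist1h2al (chr13:51202727-51203065) lies apart from the other Hist1 genes. The GENCODE M21 annotation lists it as a processed pseudogene, but the count table lists it as protein_coding, so it was kept. A further 3 rows with such names were left out because the table lists them as pseudogenes or a long non-coding RNA.

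The genes were followed in 11 RNA-seq libraries of T cells sorted from kidneys of wild-type (WT) mice with glomerulonephritis, the model of a series on blocking the IL-7 receptor alpha chain. All mice were immunised with recombinant mouse myeloperoxidase (MPO), the antigen of one class of anti-neutrophil antibodies, and then received sheep anti-mouse basement membrane globulin at a low dose. At day 21 cells were sorted by CD4 or CD8 and by CD127, the IL-7 receptor alpha chain, and PD-1, an inhibitory receptor. The groups were CD4+CD127-PD-1+ (n = 2), CD4+CD127+PD-1- (n = 3), CD8+CD127-PD-1+ (n = 3) and CD8+CD127+PD-1- (n = 3). Each sort used cells pooled from 3 mice, and replicate error here is therefore that of pools. The design called for a further CD4+CD127-PD-1+ sample, which failed quality control. The labels used here give no strain, age or sex of the mice, and animals treated to block the receptor were not analysed here.

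These genes are transcribed mainly in S phase, when DNA is copied, and their mRNAs are the only known animal mRNAs that normally end in a conserved stem-loop in place of a poly(A) tail. The stem-loop is bound by SLBP, and the U7 small nuclear ribonucleoprotein directs cleavage just after it. T cells that have met antigen enter division, and their histone mRNA then accumulates with DNA synthesis, while a few members are also made as polyadenylated mRNA in cells that do not divide.

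Library totals ran from 10572505 to 16057310 counts, and the mitochondrial share of counts was 38.5 to 44.8% in CD8+CD127-PD-1+ and 30.0 to 33.8% in the other groups. Il7r, which encodes CD127, Pdcd1, which encodes PD-1, and Cd4 and Cd8a followed the labels in every library. Cd8b1, the other CD8 chain, was at 310 to 444 CPM in the CD8 libraries but also at 60.7, 20.7 and 30.1 CPM in CD4+CD127+PD-1-, against 5.98 and 1.75 CPM in CD4+CD127-PD-1+ (log2 fold change -3.27 ± 0.51, SE; edgeR adjusted p = 0.0025). The T cell marker list was at 1280 to 2007 summed CPM per library (CPM being a gene's count scaled to the library's size after TMM normalization), with 0 of 10 genes called in either state comparison. The macrophage marker list was at 1162 to 2496 summed CPM in the CD127-PD-1+ libraries and at 52.9 to 125 in the CD127+PD-1- libraries, with none of its 11 genes at 0. Plasmacytoid dendritic cell markers ran the other way, at 80.2 to 361 against 375 to 1067 summed CPM. Of the 3 endothelial markers, Pecam1 and Cdh5 were called lower in both lineages, with sums of 27.2 to 63.9 against 65.4 to 154 CPM. Of the 6 B cell markers, Cd79a, Cd79b and Ms4a1 were called higher in the CD8 state comparison and none in CD4, and their sum was at 349 to 586 CPM in CD8+CD127-PD-1+ against 237 to 379 in CD8+CD127+PD-1-. In bulk RNA a change in the number of cells of a type and a change in RNA per cell cannot be told apart.

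The stem-loop is shown first because it is what the genes share outside their coding sequence and because Hist3h2a and Hist1h1c, which differed from most members below, carry it too. It was found in the annotated transcripts (GENCODE M21, GRCm38) of 46 of the 68 members and in 74 of all 55450 genes (0.13%). The commonest 16-base form occurred in 26 members and the next in 7. Each line gives 5 bases on either side in lower case and the stem-loop in capitals, all in the 3′ UTR and read 5′ to 3′ on the strand of the gene.
Hist1h2bm (chr13:21722501-21722526, plus strand): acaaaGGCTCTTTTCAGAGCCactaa
Hist1h1e (chr13:23621777-23621802, minus strand): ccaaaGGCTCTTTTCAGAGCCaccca
Hist1h4d (chr13:23581945-23581970, plus strand): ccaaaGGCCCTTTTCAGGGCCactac
Hist2h2ac (chr3:96220413-96220438, minus strand): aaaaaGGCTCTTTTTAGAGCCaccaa
Hist3h2a (chr11:58955167-58955192, plus strand): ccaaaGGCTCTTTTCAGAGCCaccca
Hist1h1c (chr13:23739507-23739532, plus strand): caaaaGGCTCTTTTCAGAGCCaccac

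The annotated mRNA ends 46 bases after the stem-loop for Hist1h2bm and 57 bases after it for Hist2h2ac. It runs on for 1643 bases for Hist3h2a, 1153 for Hist1h1e, 840 for Hist1h1c and 770 for Hist1h4d. In that stretch Hist3h2a and Hist1h1c have a polyadenylation signal (AATAAA), and Hist1h1e and Hist1h4d do not. Altogether 14 members had AATAAA after the stem-loop in an annotated transcript. No match was found for 22 members, among them Hist1h1b and Hist1h2ak, which says only that these letters are not in their annotated transcripts.

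Many members have near-identical paralogs or overlap another gene, which limits how reads can be assigned to them. Every 75-base window, the length of the reads, was compared with all annotated transcripts, and the share of windows found in no other gene was taken for each member. A gene entered the test only if it passed a filter on low counts, which 42 of the 68 members did: 5 H1, 6 H2A, 14 H2B, 8 H3 and 9 H4. Of the 42, 31 had a library at the filter's count minimum in all 4 groups, 8 in 3 groups and 3 in 2 groups. The median share of unique windows was 68.7% (10.7 to 100%) in these 42 and 14.3% (0.0 to 100%) in the 26 that did not pass. Of the 26, 20 had under 50% unique windows, against 11 of the 42. Among the 26 were 6 members with 0 reads in all 11 libraries, which allows up to 0.0201 CPM over the 11 libraries (3 counts, counting error only). Hist2h2aa1, Hist2h2aa2, Hist2h3c1, Hist2h3b and Hist2h2bb, 5 of these 6, had 0.0% unique windows. The window share counts 2 cases alike, a near-identical copy elsewhere and another gene annotated over the same bases: Hist2h2bb shares 0 windows with another member but overlaps Gm42743 on its own strand. How reads of either case were counted is not given in the labels or notes used here, so a count of 0 in these 5 says nothing of their expression. A second row named Hist2h2bb, left out as a long non-coding RNA, had 16 reads over the 11 libraries. Hist1h2aa, the other of the 6 members with 0 reads, is a testis histone, as are Hist1h1t and Hist1h2ba, which had 2 reads each. Exons of 25 members also overlap another gene, 22 of them one on the opposite strand, and the strand setting used in counting is not given there either.

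**Figure D1:**
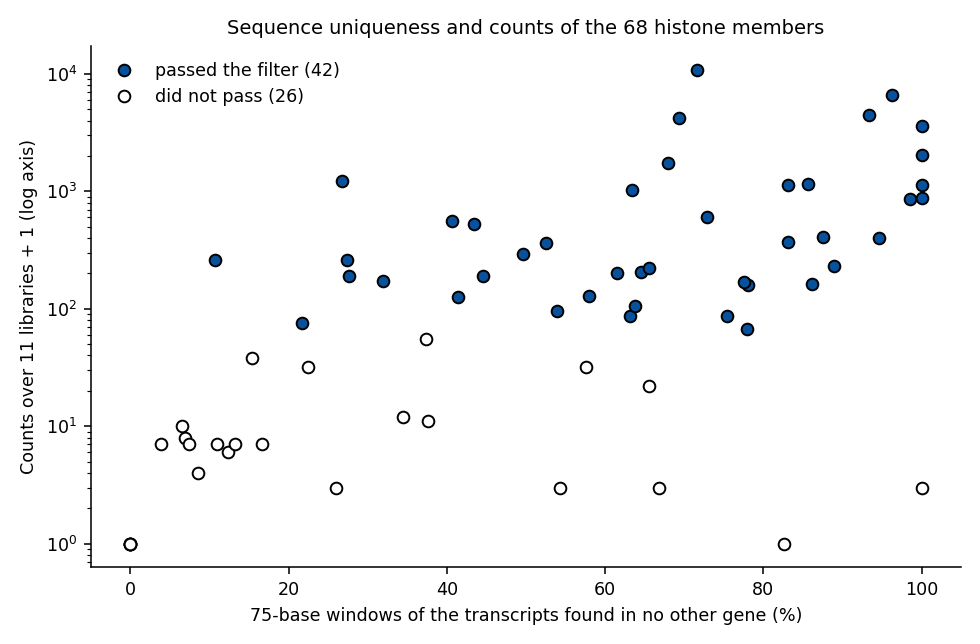
Counts over the 11 libraries plus 1 (log axis) against the share of 75-base windows found in no other gene, with 1 point per histone member. Filled points are the 42 members that passed the filter on low counts and open points the 26 that did not, 20 of which lie under 50%.

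H1 genes held 43.8% of the histone counts, H2B 19.8%, H4 18.9%, H2A 14.5% and H3 2.96%. The most counted gene differed in weight between classes. Hist1h1e, which encodes the linker histone H1.4, took 51.9% of H1 counts, Hist3h2a 60% of H2A, Hist1h4d 72.5% of H4, Hist1h3e 39.6% of H3 and Hist2h2be 21.6% of H2B. Per kilobase of annotated exon, the highest mean levels over the 11 libraries were Hist1h4d at 37.6 CPM per kb and Hist1h1e at 37.0. Hist1h1b (H1.5) followed at 31.8, Hist1h2ak at 28.8 and Hist1h2bl at 20.7 CPM per kb. Annotated exon lengths of the members run from 312 bases for Hist1h4k to 7425 for Hist1h1d, so these per-length levels rest on the annotation.

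The 68 members summed to 231 and 431 CPM for CD4+CD127-PD-1+ and to 188, 217 and 185 CPM for CD4+CD127+PD-1-. In CD8+CD127-PD-1+ it was 385, 506 and 426 CPM, and in CD8+CD127+PD-1- it was 246, 205 and 447 CPM. The CD4 groups did not overlap, and the CD8 groups did because of CD8+CD127+PD-1- replicate 3. As mean ± SD this is 331 ± 141 (n = 2), 197 ± 17.2 (n = 3), 439 ± 61.8 (n = 3) and 299 ± 130 (n = 3) CPM in the same order. The H1, H2B, H3 and H4 sums had the same order of groups as the total. The H2A sum moved little, from 37.8 ± 5.14 to 42.9 ± 5.74 CPM in CD4 and from 50.2 ± 9.26 to 52.6 ± 6.97 CPM in CD8 cells. Within it Hist3h2a, with 60% of H2A counts, went from a mean of 32.7 to 20.7 CPM in CD4 and from 34.2 to 22.3 CPM in CD8 cells. Of the 6 tested H2A genes, 5 had positive estimates in each lineage, with median log2 differences of 1.97 in CD4 and 0.92 in CD8 cells. The flat H2A sum therefore does not describe most of the tested H2A genes.

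**Figure D2:**
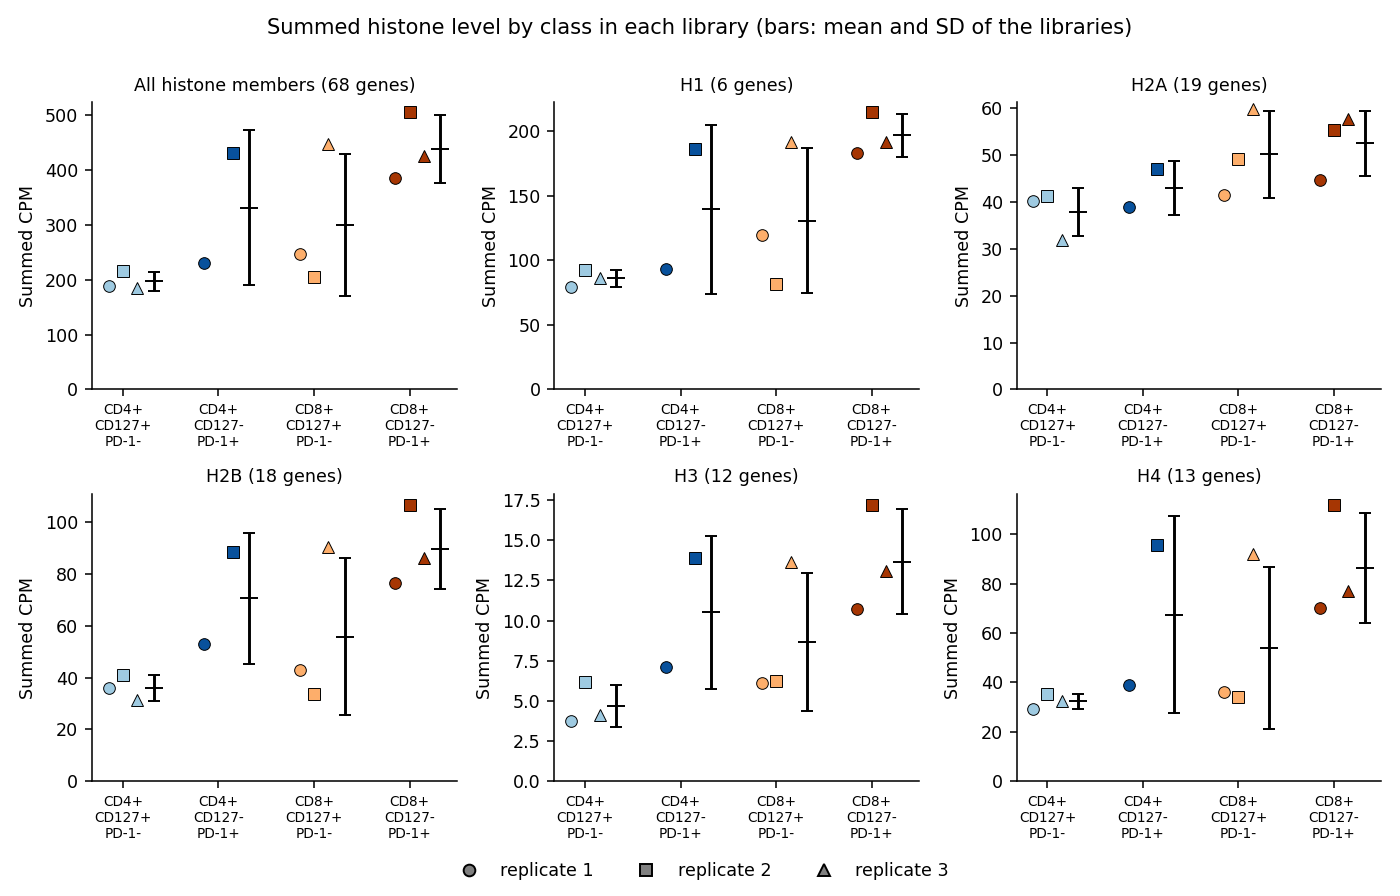
Summed CPM of the histone members of each class (y axes from 0) in each library, by sorted group on the x axis. Symbols are replicates and bars the mean and SD. CD8+CD127+PD-1- replicate 3 lies at 447 CPM for all members, beside 246 and 205 in its group. The H2A panel shows the smallest spread between groups for its level, with 60% of its counts from Hist3h2a, which ran against most tested H2A genes.

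CD8+CD127+PD-1- replicate 3 stood apart in the members' own levels before any comparison. It was the highest of its 3 libraries for 36 of the 42 tested members (85.7%), against 36.2% of all 16365 tested genes. Its level over the mean of replicates 1 and 2 had a median of 2.80 in the tested members and 0.99 in all tested genes, and 34 of the 42 members (81%) were at 1.5 or more, against 9.69% of all genes. The mitosis list was highest there in 20 of 20 genes, with a median ratio of 3.05, and the list of S-phase DNA replication genes in 30 of 35, with a median of 1.52. Its sort markers matched its label, with Il7r at 329 and Pdcd1 at 2.22 CPM, and its macrophage marker sum was the lowest of its group, at 62.9 against 117 and 125 CPM. Other marker lists differed there too. The median ratio was 0.037 for kidney tubule, 0.31 for B cell, 0.68 for endothelial and 0.76 for plasmacytoid dendritic cell markers. T cell markers were highest there in 10 of 10 genes, with a median ratio of 1.27. The pair of CD4+CD127-PD-1+ libraries also differed: replicate 2 was above replicate 1 for 38 of the 42 members, with a median ratio of 1.99, and for 20 of 20 mitosis genes, with a median of 1.74. All 11 macrophage markers were lower in that replicate, with a median ratio of 0.47, so the histone and macrophage levels ran in opposite directions within this group. Plasmacytoid dendritic cell and B cell markers were lower there too, each with a median ratio of 0.17. Of the T cell markers 9 of 10 were higher, with a median of 1.42, and of the kidney tubule markers 3 of 7, with a median of 0.79. Histone calls in the state comparisons are given below with and without CD8+CD127+PD-1- replicate 3. For the CD4+CD127-PD-1+ pair such counts are not given, because leaving out either library leaves 1 in that group.

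In CD4 cells, 6 histone genes were higher in CD127-PD-1+ than in CD127+PD-1- cells and none was lower. The 6 were Hist2h2ac, Hist1h2bm, Hist1h2ak, Hist1h1b, Hist1h2bk and Hist1h3i, with log2 fold changes of 2.12 to 3.86. They are 6 of 42 tested members, and over all 16365 tested genes 6.81% were called higher and 4.87% lower (edgeR's quasi-likelihood test, Benjamini-Hochberg adjusted over all genes, threshold 0.05). The 24 members with an unadjusted p under 0.05 include these 6. Among the 6, Hist2h2ac and Hist1h2bk had a library at the filter's count minimum in 3 groups and Hist1h3i in 2. These genes thus entered the test through groups where their levels were higher, which limits what their calls show. Every CD127-PD-1+ library lay above every CD127+PD-1- library for 26 members, against 21.3% of all genes, and below for 3, against 19.4%. The median log2 fold change was 1.35 in the tested members and 0.02 in all tested genes, and 38 of the 42 estimates were positive.

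Hist1h1b (ENSMUSG00000058773, chr13:21779883-21780625, 1 exon), which encodes the linker histone H1.5, was at 16.6 and 36.5 CPM in CD4+CD127-PD-1+. It was at 4.48, 6.68 and 7.07 CPM in CD4+CD127+PD-1-, so the groups were well apart. The log2 fold change was 2.13 ± 0.58 (SE; edgeR adjusted p = 0.0343). None of its 75-base windows occurs in another gene, so its counts are not shared with a paralog.

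Hist1h2bm (ENSMUSG00000096807 in the table, matched to the annotation by symbol and chromosome, chr13:21722044-21722567, 1 exon), an H2B gene, was at 5.31 and 13.8 CPM against 1.16, 1.15 and 2.33 CPM. Its log2 fold change was 2.64 ± 0.64 (SE; edgeR adjusted p = 0.0217), and 83.1% of its windows were unique. Hist1h2ak (ENSMUSG00000063021, chr13:21753435-21753827, 1 exon), an H2A gene, was at 8.27 and 20.1 CPM against 2.82, 3.76 and 3.16 CPM. Again each library of the first group lay above the other 3, with a log2 fold change of 2.12 ± 0.56 (SE; edgeR adjusted p = 0.0314).

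Hist2h2ac (ENSMUSG00000068855, chr3:96220361-96220880, 1 exon), an H2A gene, had the smallest adjusted p at a low level, 1.14 and 2.79 CPM against 0.50, 0.23 and 0.28 CPM. The log2 fold change was 2.52 ± 0.59 (SE; edgeR adjusted p = 0.0184). Unique windows made up 65.5%, and its exon overlaps Gm44492 on the opposite strand. Hist1h2bk and Hist1h3i, named here after their values were seen, were called from few counts. Most of their windows occur in another gene too, with 27.4% unique for Hist1h2bk and 21.7% for Hist1h3i. Hist1h2bk was at 1.21 and 2.92 CPM against 0.00, 0.31 and 0.28 CPM. Hist1h3i had 16 reads in the pair of CD127-PD-1+ libraries and 1 read in the 3 CD127+PD-1- libraries, a ratio of scaled counts of 18.9 (95% exact interval 2.94 to 794, counting error only), and its fitted fold change depends on the prior count.

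How many of the 42 were called in CD4 cells depended on single libraries. The number called higher was 1, 0 and 1 without replicates 1, 2 and 3 of CD4+CD127+PD-1-. It was 3 without CD8+CD127-PD-1+ replicate 2, 10 without CD8+CD127+PD-1- replicate 2, and 17 without CD8+CD127+PD-1- replicate 3. In the last of these fits 7.7% of all genes were called higher and 4.82% lower. The CD8 libraries enter this comparison through the spread shared by all groups. Over all genes, 4.09, 3.59 and 4.86% were called higher without replicates 1, 2 and 3 of CD4+CD127+PD-1-, against 6.81% with all libraries. The share was 5.87% without CD8+CD127-PD-1+ replicate 2 and 6.95% without CD8+CD127+PD-1- replicate 2. Leaving out a CD4+CD127-PD-1+ library leaves 1 in that group, so counts from those fits are not given. The 6 calls depended on replicate 2 of that group, the higher of the pair for 38 of the 42 members. DESeq2 called 14 members higher and Hist3h2a lower, against 8.13% and 6.43% of all genes. None of the 42 was called by limma-voom, against 5.82% of all genes higher and 4.45% lower, with 24 members at an unadjusted p under 0.05 in edgeR.

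**Figure D3:**
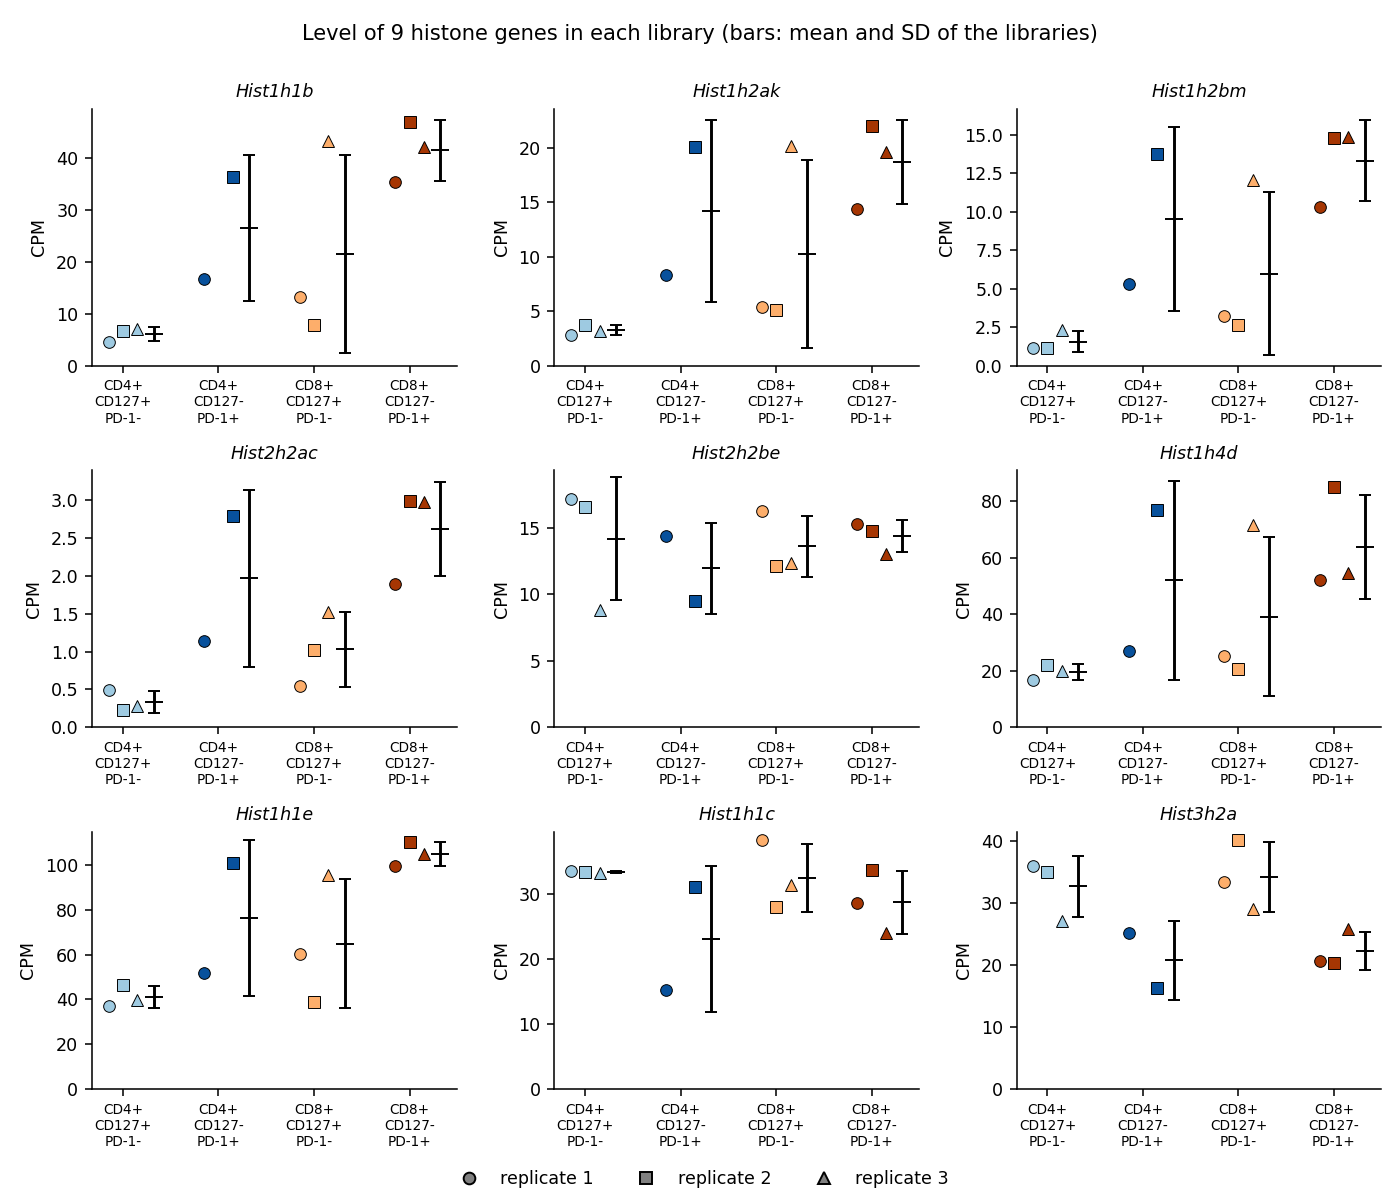
CPM (y axes from 0) of 9 histone genes in each library by sorted group, with symbols for replicates and bars for the mean and SD. Hist1h1b, Hist1h2ak, Hist1h2bm, Hist2h2ac, Hist1h4d and Hist1h1e have CD8+CD127+PD-1- replicate 3 as the highest of its group, while Hist2h2be, Hist1h1c and Hist3h2a do not.

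The 2 members with the highest level per kilobase did not pass the test. Hist1h1e (chr13:23620629-23622558) was at 51.8 and 101 CPM against 37.0, 46.4 and 39.8 CPM in CD4 cells, without overlap, with a log2 difference of 0.90 ± 0.32 (SE; edgeR adjusted p = 0.102). Hist1h4d (chr13:23581598-23582735), the main H4 gene, was at 27.0 and 76.8 CPM against 16.6, 22.0 and 19.9 CPM, a log2 difference of 1.41 ± 0.51 (SE; edgeR adjusted p = 0.101). In both genes the higher value belonged to CD4+CD127-PD-1+ replicate 2. The annotated exon of Hist1h1e overlaps Hist1h2be and Gm11398 on the same strand, and 71.6% of its windows were unique. Reads may therefore be assigned uncertainly between Hist1h1e and Hist1h2be. Among the 3 tested H2B and H2A genes of highest mean CPM in their class, Hist1h2bl differed by 1.82 ± 0.56 (SE; edgeR adjusted p = 0.0585) and Hist1h2ai by 1.59 ± 0.71 (SE; edgeR adjusted p = 0.183) on the log2 scale. Hist1h2be, at 5.98 and 11.2 CPM against 4.97, 5.91 and 7.44 CPM, overlapped between the groups. The H3 genes were low: Hist1h3e was at 3.43 and 4.87 CPM against 1.74, 3.23 and 1.40 CPM, and Hist1h3a and Hist1h3f were between 0.34 and 2.01 CPM in every CD4 library with overlap.

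In CD8 cells no histone gene was called in either direction by edgeR, with 7 of the 42 at an unadjusted p under 0.05. Of all tested genes, 9.05% rose and 6.56% fell from CD127+PD-1- to CD127-PD-1+. DESeq2 called Hist1h1d, an H1 gene named here after its values were seen, higher and Hist3h2a lower, and limma-voom called Hist1h2bk and Hist1h1d higher. Every CD127-PD-1+ library lay above every CD127+PD-1- library for 9 members, against 18% of all genes, and below for 1, Hist3h2a, against 16.4%. The median log2 difference was 0.75, against 0.01 over all tested genes, and 38 of 42 estimates were positive.

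Hist1h1b was at 35.4, 47.0 and 42.2 CPM in CD8+CD127-PD-1+ and at 13.2, 7.84 and 43.3 CPM in CD8+CD127+PD-1-. Hist1h2bm was at 10.3, 14.8 and 14.9 CPM against 3.23, 2.64 and 12.1 CPM, and Hist1h2ak at 14.4, 22.0 and 19.6 CPM against 5.39, 5.06 and 20.2 CPM. In all 3 genes the last value, replicate 3 of CD8+CD127+PD-1-, lay within the range of the CD127-PD-1+ libraries. Hist1h4d was at 51.9, 85.0 and 54.5 CPM against 25.1, 20.7 and 71.5 CPM, and Hist1h1e at 99.7, 110.4 and 105 CPM against 60.3, 38.7 and 95.7 CPM, the latter without overlap (log2 difference 0.69 ± 0.29, SE; edgeR adjusted p = 0.135). Hist2h2ac was at 1.90, 2.99 and 2.98 CPM against 0.54, 1.03 and 1.52 CPM, also without overlap (log2 difference 1.34 ± 0.48, SE; edgeR adjusted p = 0.0814).

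Without CD8+CD127+PD-1- replicate 3, edgeR called 15 of the 42 members higher in CD8+CD127-PD-1+ cells and 1, Hist3h2a, lower. The shares over all genes were 9.09% and 6.26%, close to those with it. That library was set apart by the high levels of these same members, so leaving it out raises their difference by construction. The calls without it show a dependence on 1 library and are not separate support for a difference. The 15 comprised 4 of 5 tested H1 genes, 3 of 6 H2A, 7 of 14 H2B, 0 of 8 H3 and 1 of 9 H4 genes, and the median log2 difference of the 42 was 1.44. Hist1h1b then differed by 1.98 ± 0.35 (SE; edgeR adjusted p = 0.00390, range over the alternatives 0.00390 to 0.516). Hist1h2bm differed by 2.18 ± 0.43 (SE; edgeR adjusted p = 0.00713, range 0.00713 to 0.421) and Hist1h4d by 1.48 ± 0.38 (SE; edgeR adjusted p = 0.0230, range 0.0230 to 0.677). The CD4+CD127-PD-1+ libraries are not part of this comparison but share its spread. Leaving out either leaves 1 in that group, so counts from those fits are not given. The CD8 groups overlapped for the H3 genes Hist1h3e, Hist1h3a and Hist1h3f, and none of these was called with or without that library.

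**Figure D4:**
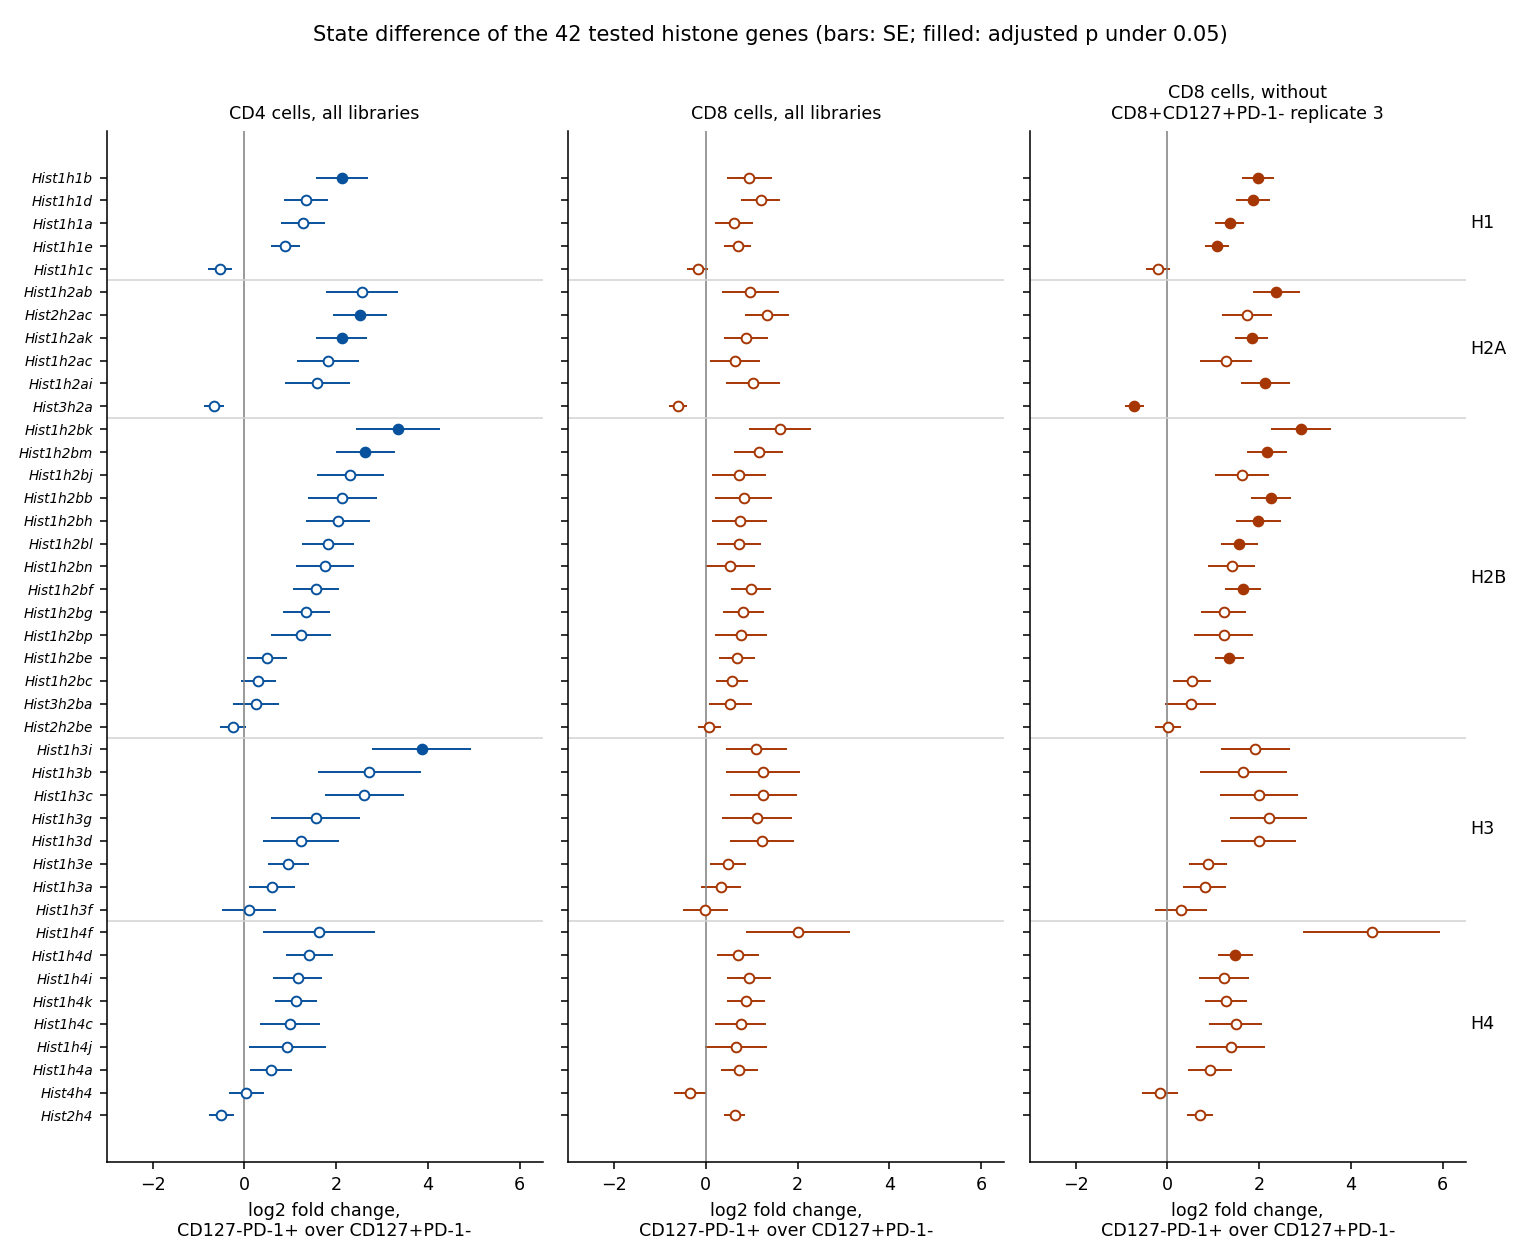
Log2 fold change of CD127-PD-1+ over CD127+PD-1- cells (x axes) for the 42 tested histone genes, grouped by class, with SE bars. Filled points have an edgeR adjusted p under 0.05: 6 in CD4 cells, 0 in CD8 cells, and 16 in CD8 cells without CD8+CD127+PD-1- replicate 3, of which 15 lie above 0. That library was set apart by the high levels of these same genes.

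The 5 members known also as polyadenylated mRNA in non-dividing cells (Hist1h1c, Hist1h2bc, Hist2h2be, Hist3h2a and Hist4h4) did not follow the others. With all 11 libraries, edgeR called none of them in any comparison, while Hist3h2a and Hist1h1c were called lower in some alternatives, and their median log2 difference was -0.25 in CD4 and -0.18 in CD8 cells, against 1.56 and 0.82 for the 37 other tested members. Their summed level was 60.7 and 66.3 CPM in CD4+CD127-PD-1+ against 94.5, 90.4 and 75.9 CPM in CD4+CD127+PD-1-. In CD8 cells it was 70.4, 77.1 and 69.2 CPM against 93.7, 85.9 and 79.5 CPM. In both lineages the CD127-PD-1+ libraries were the lower ones without overlap. The sum of the 63 other members went the other way, 170.5 and 365 CPM against 94.0, 126 and 109.5 CPM in CD4 cells and 315, 429 and 356 CPM against 152, 119 and 368 CPM in CD8 cells. In CD8+CD127+PD-1- replicate 3 the 5 genes had a median ratio of 0.95 to the other libraries of their group, while the 37 others had 2.98.

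Hist3h2a (ENSMUSG00000078851, chr11:58954685-58956830, 1 exon), the most counted H2A gene, gave the largest part of the lower sum in CD8 cells, and in CD4 cells it and Hist1h1c gave parts of similar size. It was at 25.2 and 16.2 CPM in CD4+CD127-PD-1+ against 35.97, 35.0 and 27.1 CPM, and at 20.7, 20.4 and 25.7 CPM in CD8+CD127-PD-1+ against 33.3, 40.2 and 29.0 CPM. Every CD127-PD-1+ library lay below every CD127+PD-1- library of its lineage. The log2 differences were -0.66 ± 0.22 (SE; edgeR adjusted p = 0.0830) in CD4 and -0.62 ± 0.20 (SE; edgeR adjusted p = 0.0540) in CD8 cells, so neither passed the threshold. In CD8 cells it was called lower by DESeq2, with library sizes without mitochondrial genes, without a filter, in a fit of the compared groups alone and with description numbers as a block, and its adjusted p ranged from 0.0180 to 0.193 over the alternatives. The annotated exon of Hist3h2a overlaps Trim17 and Gm44313.

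The others on the list each did something different. Hist1h1c (H1.2) was at 15.2 and 31.1 CPM against 33.6, 33.3 and 33.3 CPM in CD4 cells, without overlap (log2 difference -0.53 ± 0.26, SE; edgeR adjusted p = 0.231). In CD8 cells Hist1h1c was at 28.6, 33.7 and 24.0 CPM against 38.3, 27.9 and 31.4 CPM, with overlap. Hist2h2be was at 14.4 and 9.54 CPM against 17.2, 16.6 and 8.84 CPM in CD4 and at 15.3, 14.8 and 13.0 CPM against 16.3, 12.2 and 12.4 CPM in CD8 cells. Hist1h2bc was at 2.35 to 6.94 CPM and Hist4h4 at 1.61 to 3.67 CPM over the 11 libraries, with overlap in both state comparisons.

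Grouped by transcript annotation in place of the list, 11 tested members had AATAAA after the stem-loop and a median log2 difference of 0.50 in CD4 cells, 21 had a stem-loop without it and a median of 1.56, and 10 had no stem-loop match and a median of 1.67. The 6 calls were 0, 3 and 3 of these. In CD8 cells the medians were 0.63, 0.94 and 0.80. Hist2h4, an H4 gene with AATAAA after the stem-loop that is not on the list, was at 4.03 and 4.22 CPM in CD4+CD127-PD-1+ against 6.22, 6.605 and 4.75 CPM, and at 6.65, 7.62 and 9.67 CPM in CD8+CD127-PD-1+ against 3.84, 5.94 and 5.75 CPM. Its libraries did not overlap in either lineage, lower in CD4 (log2 difference -0.51 ± 0.27, SE; edgeR adjusted p = 0.277) and higher in CD8 cells (0.62 ± 0.24, SE; edgeR adjusted p = 0.102). The 11 tested members with under 50% unique windows had a median log2 difference of 1.82 in CD4 and 0.96 in CD8 cells, and the other 31 had 1.23 and 0.73, so members with few unique windows did not run against the rest.

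Promoters are shown because neighbouring H2A and H2B genes are often transcribed away from each other from 1 shared stretch, so that a pair can be compared. In GENCODE M21, 12 such pairs had starts 175 to 305 bases apart, all of an H2A with an H2B gene. Both genes were tested in 4 pairs, both estimates were positive in CD4 cells in 3 of them, and 1 gene was called in 2 pairs and both genes in 0. Hist2h2ac and Hist2h2be share 238 bases between their starts. On the 2 sides of it, Hist2h2ac had a log2 difference of 2.52 in CD4 and 1.34 in CD8 cells, and Hist2h2be (ENSMUSG00000068854, chr3:96221119-96223738, 1 exon) had -0.25 and 0.08. Hist2h2be is on the polyadenylated list, as is Hist1h2bc, whose partner Hist1h2ac, named here for its position, had a log2 difference of 1.82 in CD4 cells against 0.31 for Hist1h2bc. The difference within a pair was not tested.

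The 250 bases before the start of 3 of the called genes follow (RefSeq, GRCm38.p6), 5′ to 3′ on the strand of the gene, with matches to the searched motifs on either strand in capitals. The stretch before Hist2h2ac spans the whole gap and reaches into Hist2h2be.
Hist2h2ac (chr3:96220881-96221130, minus strand): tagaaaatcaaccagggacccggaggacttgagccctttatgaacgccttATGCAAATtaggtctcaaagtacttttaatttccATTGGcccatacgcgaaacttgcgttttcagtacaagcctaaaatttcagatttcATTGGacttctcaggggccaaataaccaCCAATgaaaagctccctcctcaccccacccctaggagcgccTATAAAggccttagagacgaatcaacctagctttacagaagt
Hist1h2bm (chr13:21721794-21722043, plus strand): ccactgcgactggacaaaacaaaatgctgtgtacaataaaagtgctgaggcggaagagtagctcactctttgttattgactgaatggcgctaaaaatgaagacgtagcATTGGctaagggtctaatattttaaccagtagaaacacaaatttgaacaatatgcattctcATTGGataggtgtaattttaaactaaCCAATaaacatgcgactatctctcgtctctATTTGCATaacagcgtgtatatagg
Hist1h1b (chr13:21780626-21780875, minus strand): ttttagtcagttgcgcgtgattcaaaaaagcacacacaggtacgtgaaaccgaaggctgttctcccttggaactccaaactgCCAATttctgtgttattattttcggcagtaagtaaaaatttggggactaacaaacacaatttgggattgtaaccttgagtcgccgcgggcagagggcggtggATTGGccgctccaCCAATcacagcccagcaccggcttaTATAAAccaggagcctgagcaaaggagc

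The motifs were TATAAA (the TATA box) and CCAAT, each searched on both strands. The octamer known from H2B promoters was searched as ATTTGCAT. E2F was searched as any of 3 spellings on both strands. The first spelling was TTTCGCGC, with TTTGGCGC accepted in its place, and the third spelling was TTTCCCGC. Of 68 members 62 had a promoter in the RefSeq table, of 32851 promoters in all. TATAAA occurred in 29 of the 62 (46.8%, against 12.37% of all promoters) and CCAAT in 51 (82.3%, against 33.85%). The octamer occurred in 13 (21%, against 1.6%), 6 of 16 H2B and 7 of 18 H2A promoters and in none of H1, H3 or H4. E2F letters occurred in 8 (12.9%, against 1.53%). Genes of a divergent pair share promoter bases and both strands were searched, so the same site can count for both genes. This holds for the octamer of Hist1h2ae and Hist1h2bg and for the E2F letters of Hist1h2an and Hist1h2bp. The counts are therefore of promoters and not of separate sites. The Hist2h2ac promoter held the TATA box, the CCAAT box and the octamer. The Hist1h2bm promoter held the CCAAT box and the octamer, and the Hist1h1b promoter held the TATA box and the CCAAT box. A match describes the letters and is not a bound site.

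Between the lineages, CD4+CD127+PD-1- cells had lower histone levels than CD8+CD127+PD-1- cells in most members, but none of the 42 was called by edgeR, with 15 at an unadjusted p under 0.05. Over all genes 2.76% were called higher in CD4 and 1.66% lower. DESeq2 called 5 members lower, against 3.22% of all genes, and limma-voom 0, against 1.42%. Every CD4 library lay below every CD8 library for 11 members, against 10.9% of all genes, and above for 0, against 11.9%, and the median log2 difference was -0.92, against -0.01 over all genes. Samples of these 2 groups with the same replicate number deviated together, and with the description number as a block 2 members were lower in CD4 cells, against 3.87% of all genes called higher and 2.66% lower. These were Hist1h2bm (log2 difference -1.77 ± 0.33, SE; edgeR adjusted p = 0.0123) and Hist1h1b (-1.54 ± 0.38, SE; edgeR adjusted p = 0.0440), and with the title number as a block Hist1h2bm alone was called (edgeR adjusted p = 0.0495). Their adjusted p ranged from 0.00295 to 0.355 and from 0.000598 to 0.287 over the alternatives. Without CD8+CD127+PD-1- replicate 3 the median of the 42 was -0.29, Hist1h2bm was at -0.94 ± 0.45 (SE; edgeR adjusted p = 0.355) and 0 members were called. Without CD8+CD127+PD-1- replicate 2, Hist1h1b alone was called lower.

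In CD127-PD-1+ cells the lineages were closer, with a median log2 difference of -0.40 (CD4 over CD8), and 0 of the 42 members were called by edgeR, with 1 at an unadjusted p under 0.05. That 1 was Hist2h4, at 4.13 ± 0.13 CPM (SD, n = 2) in CD4 and 7.98 ± 1.54 CPM (n = 3) in CD8 cells, a log2 difference of -0.95 ± 0.27 (SE; edgeR adjusted p = 0.117), and DESeq2 called it lower while limma-voom called 0. Over all genes 1.6% were called higher and 0.843% lower. Every CD4 library lay below every CD8 library for 5 members, against 13.5% of all genes, and above for 1, Hist4h4, against 14.3%. The difference between the CD4 and the CD8 state changes was tested directly. It was called for 0 of the 42 members, with 1 at an unadjusted p under 0.05, and for 1 of all 16365 genes (0.00611%); DESeq2 and limma-voom called 0 members. The 6 calls in CD4 cells and the 0 in CD8 cells therefore do not show that the lineages differ.

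Genes of the cell cycle and of histone mRNA and protein handling were read from lists beside the members. Of the 35 tested genes of S-phase DNA replication, 13 rose and 0 fell in CD4 cells and 7 rose and 0 fell in CD8 cells, with median log2 differences of 0.96 and 0.75. Mcm10, which takes part in starting replication, had a log2 fold change of 2.42 ± 0.48 (SE) in CD4 and 1.52 ± 0.41 in CD8 cells. Tyms, which makes thymidylate for DNA, had 1.73 ± 0.36 and 1.19 ± 0.32. Pole, a DNA polymerase subunit, rose by 1.52 ± 0.32 in CD4 cells and did not pass in CD8 cells, at 0.79 ± 0.29. Of the 12 genes of S-phase entry, 2 rose and 1 fell in CD4 and 4 rose and 0 fell in CD8 cells. E2f8, a transcription factor of S phase, rose by 2.46 ± 0.43 and 1.36 ± 0.38, and E2f1, which switches on replication genes, by 1.40 ± 0.25 and 0.73 ± 0.22. Cdkn1a, which encodes the cell cycle inhibitor p21, was called in CD8 cells alone, at 1.91 ± 0.35 against 0.96 ± 0.37 in CD4 cells, and the test of the difference between the lineages did not call it.

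Of the 20 mitosis genes, 20 rose in CD4 and 3 in CD8 cells, with medians of 2.04 and 1.00. Cenpe, a kinetochore motor, had 2.18 ± 0.39 and 1.34 ± 0.35, Ccnb2, a mitotic cyclin, 2.41 ± 0.39 and 1.12 ± 0.34, and Birc5 (survivin) 2.45 ± 0.51 in CD4 cells and, without passing, 0.95 ± 0.44 in CD8 cells. Without CD8+CD127+PD-1- replicate 3 the counts in CD8 cells were 19 of 20 for mitosis and 21 of 35 for replication, beside the 15 of 42 histone members. That library had stood apart by high levels of these same genes. Library by library, the mitosis sum was 1313 and 2355 CPM in CD4+CD127-PD-1+, 404 to 561 in CD4+CD127+PD-1-, 1736 to 2329 in CD8+CD127-PD-1+, and 647, 527 and 1813 CPM in CD8+CD127+PD-1-. In CD4+CD127-PD-1+ and in CD8+CD127+PD-1- the library with the highest histone sum also had the highest mitosis sum. In the other groups, CD8+CD127-PD-1+ as well as CD4+CD127+PD-1-, it did not: replicate 2 had the highest histone sum and replicate 3 the highest mitosis sum in both. The part that the share of dividing cells, or cells other than T cells, had in the histone differences was not tested. All 11 macrophage markers rose in both state comparisons, with medians of 5.70 and 5.69.

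**Figure D5:**
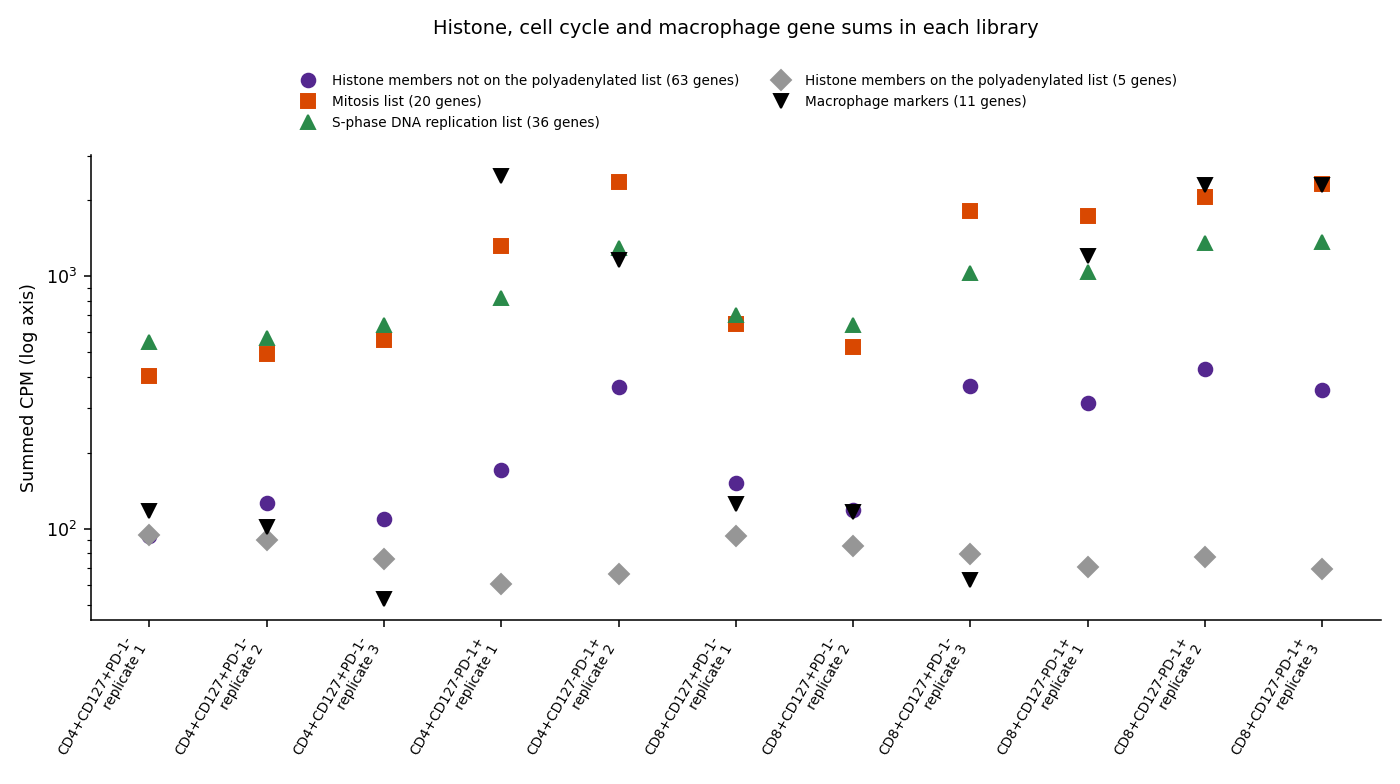
Summed CPM (log axis) of 5 gene groups in each of the 11 libraries on the x axis. In CD8+CD127+PD-1- replicate 3 the 63 histone members outside the polyadenylated list (368 CPM) and the mitosis genes (1813 CPM) are high while the macrophage markers (62.9 CPM) are low.

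The 16 genes of histone mRNA transcription and 3′ processing showed no call in either direction in CD4 or CD8 cells by edgeR, with 4 and 3 of them at an unadjusted p under 0.05. Cpsf2, a subunit of the cleavage complex, had the smallest p in both, with log2 differences of 0.51 ± 0.18 (SE) and 0.50 ± 0.16. Ncbp1 and Ncbp2, the cap-binding proteins, were at -0.35 ± 0.14 and 0.48 ± 0.18 in CD4 cells. Of the 22 histone chaperones, 2 rose in each lineage, a share near that of all tested genes called higher (6.81% in CD4 and 9.05% in CD8 cells). Chaf1a, a subunit of the complex that places histones on newly copied DNA, had 1.94 ± 0.43 and 1.44 ± 0.38. Chaf1b, its partner, rose in CD4 cells (1.12 ± 0.24) and did not pass in CD8 cells (0.62 ± 0.22), and Nap1l1, which carries H2A and H2B, passed in CD8 cells (0.44 ± 0.12) and not in CD4 cells (0.38 ± 0.13).

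Of the 9 tested replication-independent variants, which are incorporated outside S phase too, 3 rose in CD4 and 2 in CD8 cells and none fell. H2afz, which encodes H2A.Z, was at 371 ± 64.2 against 197 ± 10.3 CPM in CD4 and at 485 ± 37.0 against 301 ± 69.5 CPM in CD8 cells. Its log2 fold changes were 0.92 ± 0.17 and 0.69 ± 0.15. H1f0, the linker histone of resting cells, rose by 0.95 ± 0.20 and 0.67 ± 0.19. H2afx, which marks DNA breaks once phosphorylated and whose mRNA is known both with a poly(A) tail and in the stem-loop form, rose in CD4 cells (1.22 ± 0.29) and did not pass in CD8 cells (0.33 ± 0.26). The state by lineage test called 0 genes of any of these lists.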

How the data were processed

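RNA from T cells sorted from pools of 3 mice (2 ng per library) was amplified by SPIA and sequenced as 75-base single reads, per the labels' protocols. Whole-number counts per gene were deposited by the authors; the submitters' processing notes name STAR, featureCounts and GRCm38, with versions, strand and multimapping settings not given in the sources used here. Whether the amplification captures mRNA without a poly(A) tail is not given either. The table has 1 further column without a label, which was not used. The members, gene lists and tests were chosen with earlier results of these data known.

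Counts of all 46078 genes were filtered with filterByExpr, scaled by TMM and fitted with edgeR 4.0.16 (R 4.3.3) by its quasi-likelihood test with 4 group means over 11 libraries, which share 1 estimate of the spread. Benjamini-Hochberg adjustment ran over 16365 genes, with a threshold of 0.05. SE is the absolute log2 fold change over the square root of F. DESeq2 1.42.0 and limma-voom (limma 3.58.1), other scalings, filters, blocks and each library left out were alternatives. The script was tested on simulated data: of 100 genes changed by a log2 of 2, 87 were recovered in the CD4 and 91 in the CD8 state comparison, and of 100 changed by 1, 24 and 42. Members named with values were the 3 tested members of each class with the highest mean CPM, up to 3 called members with the smallest p per comparison, called members against the majority direction, and those on 2 member lists (polyadenylated, testis); from the other lists up to 3 genes with the smallest p were named. Same-numbered CD127+PD-1- libraries of the CD4 and the CD8 lineage deviated together from their group means (correlations 0.21, 0.15 and 0.32), so the block is given beside that comparison.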

Additional observations from a re-analysis of the deposited data

How the results depend on the processing

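The 90 results for named genes had 1782 alternative values, of which 1712 kept their direction and side of the threshold, 51 passed it newly, 19 no longer passed and 0 reversed. Shares of all tested genes called the same way are given in brackets. Members called higher in the CD4 state comparison numbered 14 by DESeq2 (8.13%), 0 by limma-voom (5.82%) and 10 with the replicate block by title number (7.06%). They numbered 17 of 62 tested with no filter beyond 1 read (4.74%), and 0 to 17 with 1 library left out of a group of 3 (3.59 to 7.7%). Members called lower there numbered 1 by DESeq2 (6.43%), with no filter (3.23%) and with the replicate block by description number (5.4%). With 1 library left out of a group of 3 they numbered 0 (2.91 to 4.82%). In CD8 cells, those called higher numbered 1 by DESeq2 (10.6%), 2 by limma-voom (9.22%), 3 with no filter (6%) and 2 with the replicate block by title number (10.1%). They numbered 0 to 15 with 1 library left out of a group of 3 (5.26 to 9.09%). Those called lower there numbered 1 by DESeq2 (8.17%), with library sizes without mitochondrial genes (7.34%) and with no filter (4.26%). It was also 1 in a fit of the compared groups alone (6.31%) and with the replicate block by description number (4.85%). They numbered 0 to 1 with 1 library left out of a group of 3 (3.75 to 6.26%). Between lineages in CD127+PD-1- cells, members called lower in CD4 numbered 5 by DESeq2 (3.22%) and 8 with no filter (1.98%). They numbered 1 and 2 with the replicate block by title (2%) and description number (2.66%). With 1 library left out of a group of 3 they numbered 0 to 1 (0.855 to 1.64%). In CD127-PD-1+ cells DESeq2 called 1 lower (1.78%). The cause of these changes was not tested. The H1 sum in CD8+CD127-PD-1+ was 173 CPM with raw library totals, against 197.

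In the state comparisons, correlations of same-numbered deviations by title were 0.27 and -0.09 in CD4 and 0.11, -0.05 and -0.16 in CD8 cells. By description they were all positive, at 0.09 and 0.33 in CD4 and 0.11 and 0.16 in CD8 cells. Whether libraries with the same number were paired cannot be told from these values, and both blocks were run as alternatives. A fit of the compared groups alone gives no value for the difference between lineages in the state change. Low counts limit the 26 members not tested, which had 0 to 54 reads each.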
